A study of Mus musculus with 6 samples.

Results

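Genes of the interferon response and of cytoplasmic and endosomal RNA sensing were examined in N2A cells after knockdown of the long non-coding RNA *Paupar*. The set was a list of 53 mouse genes. A gene was measured where the array annotation gave a transcript cluster exactly 1 symbol and that symbol was on the list, and of several clusters the one with the highest mean over the 6 arrays was kept. This gave 50 measured genes among 19938 named genes. No cluster named only *Ifi44*, *Isg15* or *Gbp2*, and these genes were not analysed here. The measured genes comprised 20 genes of the route from RNA sensor to receptor and 30 interferon-induced genes. The former were 5 sensors, 3 adaptors or kinases, 8 transcription factors and 4 receptors. The latter were 17 antiviral effectors, 8 induced signalling genes and 5 antigen processing genes.

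N2A is a mouse neuroblastoma line, and all cells were kept in DMEM with 10% fetal bovine serum. Control cells received a non-targeting hairpin vector (n = 3) and knockdown cells a plasmid whose hairpin targets *Paupar* (n = 3). Each was transfected transiently with 1.5 µg of plasmid and FuGENE 6, and the labels put RNA extraction 2.5 days later. Labelled DNA from 200 ng of RNA was hybridised to Affymetrix Mouse Gene 1.0 ST arrays, which gave 1 log2 RMA value per cluster and array. Both groups therefore carried a plasmid, transcribed a hairpin from its U6 promoter and went through the same transfection, and no untransfected cells are among the 6 arrays. The methods call the samples biological replicates. *Paupar* itself has no named cluster in the annotation used here, so the extent of knockdown was not checked on these arrays. Each value averages over transfected and untransfected cells of a culture, and in such bulk samples a change in fewer cells cannot be told apart from less RNA per cell.

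Double-stranded RNA in a cell is recognised by RIG-I-like helicases in the cytoplasm, by TLR3 in endosomes and by the kinase PKR. The helicases signal through MAVS and the kinases TBK1 and IKKε to the factors IRF3 and IRF7, which switch on the interferon genes. Secreted interferon then acts through its receptors on transcription factors that bind the interferon-stimulated response element (ISRE) in front of antiviral, signalling and antigen presentation genes. Short hairpin RNAs contain a duplex stem, which is why this gene set is commonly looked at in hairpin experiments.

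The hairpin that the study names for the transient *Paupar* knockdown is shown because its stem is a double-stranded RNA made in the knockdown cells. The labels of the arrays do not name the hairpin. It is printed from the study's own oligonucleotide list, with both arms of the stem in capitals and the loop and the terminal run of T in lower case.
sh408: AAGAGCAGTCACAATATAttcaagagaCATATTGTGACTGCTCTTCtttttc
The oligonucleotide has 52 bases, with arms of 18 and 19 bases around a loop of 9, and the longest uninterrupted paired run is 17 base pairs. The control hairpin sequence was not used here.

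Stretches of 4 promoters are shown because they carry the letters of the ISRE in front of genes whose values went different ways. They come from RefSeq (GRCm38.p6), run 5′ to 3′ on the strand of the gene and lie within the 250 bases before the transcription start. Capitals mark each match to GAAANNGAAA read on either strand, so that runs that begin with TTTC are matches on the opposite strand. For *Rsad2* the stretch is chr12:26456538-26456597 on the minus strand, for *Ifit1* chr19:34640760-34640838 on the plus strand, for *Ifit3* chr19:34583348-34583441 on the plus strand and for *Cxcl10* chr5:92349068-92349127 on the minus strand.
Rsad2: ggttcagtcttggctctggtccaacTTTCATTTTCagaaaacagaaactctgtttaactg
Ifit1: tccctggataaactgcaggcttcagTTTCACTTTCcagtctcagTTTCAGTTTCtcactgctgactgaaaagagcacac
Ifit3: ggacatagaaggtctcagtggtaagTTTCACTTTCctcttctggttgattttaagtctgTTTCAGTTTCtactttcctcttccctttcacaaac
Cxcl10: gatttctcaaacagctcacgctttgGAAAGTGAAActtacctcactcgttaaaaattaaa

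Of the members tested, 4 were called upon *Paupar* knockdown, and all 4 were lower. *Rsad2*, *Isg20* and *Mx2*, all antiviral effectors, and *Ifngr2*, the signalling chain of the interferon gamma receptor, fell by 0.63, 0.65, 0.59 and 0.48 on the log2 scale. No member was called higher in the fit that follows the study's methods. *Cxcl10* was called higher in 6 of 11 alternative fits to all 6 arrays, and in 0 of 6 with 1 array left out. Of the 50 measured members 30 passed the filter on variance that the study's methods apply, 4 of these were lower and 26 did not pass the test (limma, Benjamini-Hochberg adjusted over 9969 genes, threshold 0.05). In the same fit 13.3% of the tested members and 7.54% of all tested genes were called. The 4 lower members of 30 tested stand beside 5.16% of all tested genes. With 30 members tested, 0 higher calls beside 2.39% of all tested genes is no finding about the members. The other 20 members varied too little to be tested and have a difference but no call. In a fit to all named genes with no filter, 12 members had an unadjusted p under 0.05 with a lower value and 4 with a higher one, beside 9.73% and 8.67% of all named genes. The 4 of 50 higher members are thus no more than that share.

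Differences over the whole set were small. They ranged from -0.65 to 0.40 with a median of -0.06, against a median of 0.03 over all named genes. Knockdown values were below control in 33 of the 50 members (66.0%) and in 41.6% of all named genes. In 15 members every knockdown array lay below every control array, and in 5 every knockdown array lay above. The same was true of 10.8% and 12.8% of all named genes. A mean difference of more than 1.5-fold occurred in 3 members, *Isg20*, *Rsad2* and *Mx2*, and in 1.75% of all named genes. *Mx2* lay near the floor of the array, where its fold is imprecise. The 20 sensor-to-receptor genes had a median difference of -0.10, with 15 below 0, 1 called lower and 10 tested. The 30 induced genes had a median difference of -0.03, with 18 below 0, 3 called lower and 20 tested, and this median turned to 0.01 without control array 3. Of all tested genes 5.16% were called lower. Both medians describe lists drawn up with results of these data known, and the difference between them was not tested.

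**Figure D1:**
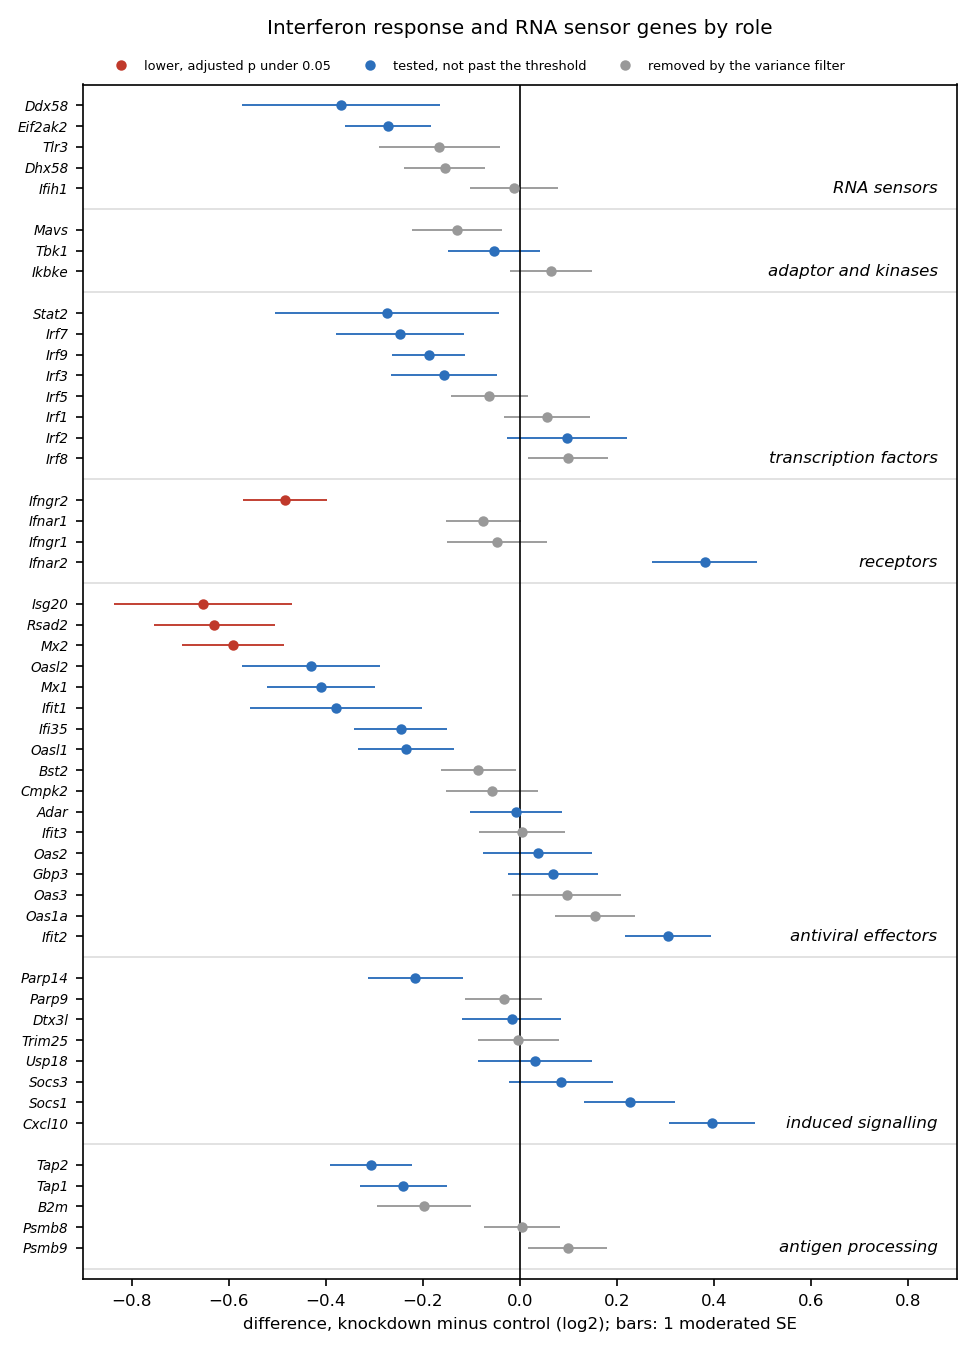
Difference of mean log2 RMA value, knockdown minus control, of the 50 measured members (x axis, log2 scale) arranged by role, with bars of 1 limma standard error from the fit to all named genes. The 4 members called lower (*Ifngr2*, *Isg20*, *Mx2* and *Rsad2*) lie between -0.65 and -0.48, and no member beyond 0 on the right was called.

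The RNA sensors comprise *Ddx58*, which encodes RIG-I, its relatives *Ifih1* (MDA5) and *Dhx58* (LGP2), the endosomal receptor *Tlr3* and *Eif2ak2*, which encodes PKR. All 5 had a lower mean upon knockdown and none was called, and the sign of *Ifih1* (-0.01) turned after median centring (0.01), with array weights (0.03), without control array 1 (0.03) and without knockdown array 2 (0.04). *Ddx58* read 9.43, 8.74 and 9.12 on the control arrays and 8.41, 8.64 and 9.14 on the knockdown arrays. The groups overlapped, since knockdown array 3 exceeded control arrays 2 and 3. The difference was -0.37 (SE 0.19, adjusted p = 0.226). *Eif2ak2* read 9.08, 8.95 and 8.93 in control and 8.64, 8.67 and 8.83 in knockdown, so that the groups did not overlap, with a difference of -0.27 (SE 0.12, adjusted p = 0.164). *Dhx58* also had all knockdown arrays below control, with a difference of -0.16, and was not in the test. *Tlr3* and *Ifih1* differed by -0.17 and -0.01, were not in the test, overlapped between groups and had mean levels under the rough floor of the array described with *Mx2*.

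Adaptor and kinase values lay close together. *Mavs*, the mitochondrial adaptor of the RIG-I-like helicases, read 9.60, 9.41 and 9.68 in control and 9.48, 9.37 and 9.46 in knockdown, a difference of -0.13. The knockdown arrays lay within or just below the control range. *Tbk1*, the kinase that phosphorylates IRF3, read 9.99, 10.01 and 9.76 in control against 9.92, 9.79 and 9.88 in knockdown, all of the latter inside the control range. The difference was -0.05 (SE 0.12, adjusted p = 0.80). *Ikbke*, which encodes the related kinase IKKε, differed by 0.06. Neither *Mavs* nor *Ikbke* was in the test.

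Among the 8 transcription factors 5 had a lower and 3 a higher mean upon knockdown, with a median difference of -0.11 and no call. *Stat2*, a subunit of the complex that type I interferon activates, read 11.23, 10.41 and 10.76 in control and 10.18, 10.41 and 10.98 in knockdown. Its arrays spread over about the same range in both groups (SD 0.41 in each), and the difference of -0.27 did not pass the test (SE 0.21, adjusted p = 0.413). *Irf9*, the DNA-binding subunit of that complex, read 8.81, 8.77 and 8.75 in control and 8.58, 8.61 and 8.59 in knockdown. The groups were apart and tight, yet the difference was only -0.19 (SE 0.11, adjusted p = 0.288). *Irf7*, the inducible factor that amplifies interferon production, differed by -0.25 (adjusted p = 0.272), and *Irf3*, its constitutive relative, by -0.16 (adjusted p = 0.453). *Irf2*, which can hold back interferon-responsive promoters, read 11.38, 10.99 and 11.04 in control and 11.12, 11.17 and 11.41 in knockdown. The groups overlapped and the difference was 0.10 (adjusted p = 0.676). *Irf1*, *Irf5* and *Irf8* were not in the test and differed by 0.06, -0.06 and 0.10.

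Of the receptor chains *Ifngr2* was lower and the others were not called. It was the only sensor-to-receptor gene called. It read 12.23, 12.11 and 12.24 on the control arrays and 11.70, 11.63 and 11.81 on the knockdown arrays. All knockdown values lay below all control values, and the fall of 0.48 was 1.40-fold (SE 0.12, adjusted p = 0.0258). *Ifngr1*, the ligand-binding chain of the same receptor, differed by -0.05 and was not in the test. *Ifnar2*, a chain of the type I interferon receptor, read 10.56, 10.41 and 10.64 in control and 10.82, 10.82 and 11.12 in knockdown. All knockdown arrays lay above control, but the difference of 0.38 did not pass the test (SE 0.13, adjusted p = 0.0843). Its partner *Ifnar1* read 10.05, 10.05 and 10.08 in control and 10.04, 9.95 and 9.95 in knockdown, a difference of -0.08 outside the test.

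The genes of 3 of these receptor chains are neighbours. In the RefSeq table *Ifnar2*, *Il10rb*, *Ifnar1* and *Ifngr2* follow each other on chromosome 16 with 0 other protein-coding genes between them, and their differences were 0.38, 0.21, -0.08 and -0.48 in that order. *Il10rb*, a shared chain of the interleukin-10 and interferon lambda receptors that is no member of the set, read higher on all knockdown arrays and was not called. Along this stretch of adjacent genes the differences thus went from positive to negative, with only the last gene called and no difference between the genes tested.

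Antiviral effectors held 3 of the 4 calls. Of the 17 measured, 12 were tested and 3 were lower, beside 5.16% of all tested genes called lower. A mean below control was found in 11, beside 41.6% of all named genes. All knockdown arrays lay below control in 7 and above in 2, beside 10.8% and 12.8% of all named genes. *Rsad2* encodes viperin, an enzyme that blocks viral RNA synthesis. It read 8.82, 8.33 and 8.71 in control and 7.91, 8.05 and 8.02 in knockdown. The groups did not overlap, and the knockdown arrays were the tighter group (SD 0.07 against 0.26). *Rsad2* fell by 0.63, or 1.55-fold (SE 0.14, adjusted p = 0.0167).

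*Mx2*, an interferon-induced GTPase with antiviral activity, read 6.99, 6.98 and 6.92 in control and 6.42, 6.15 and 6.53 in knockdown. Every knockdown array was below every control array, and *Mx2* fell by 0.59, or 1.51-fold (SE 0.13, adjusted p = 0.0155). Its mean level of 6.67 was under 6.73, the 95th percentile of 1027 olfactory receptor genes, which N2A cells were taken not to use and which served as a rough floor of the array. *Mx1*, its paralogue, read 6.46, 6.55 and 6.41 in control and 5.89, 6.00 and 6.29 in knockdown. These groups also did not overlap, and the difference of -0.41 did not pass the test (SE 0.13, adjusted p = 0.0672). *Mx1* and *Mx2* are near relatives, and whether probes of one also bind RNA of the other was not tested.

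*Isg20*, an interferon-induced exonuclease that degrades RNA, read 9.55, 9.17 and 9.57 in control and 8.53, 8.58 and 9.22 in knockdown. Knockdown array 3 exceeded control array 2, so the groups overlapped. *Isg20* fell by 0.65, or 1.57-fold, the widest mean difference of the set, with a larger error than the other called members (SE 0.18, adjusted p = 0.0382). With no filter on variance the adjusted p of *Isg20* was 0.0911.

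**Figure D2:**
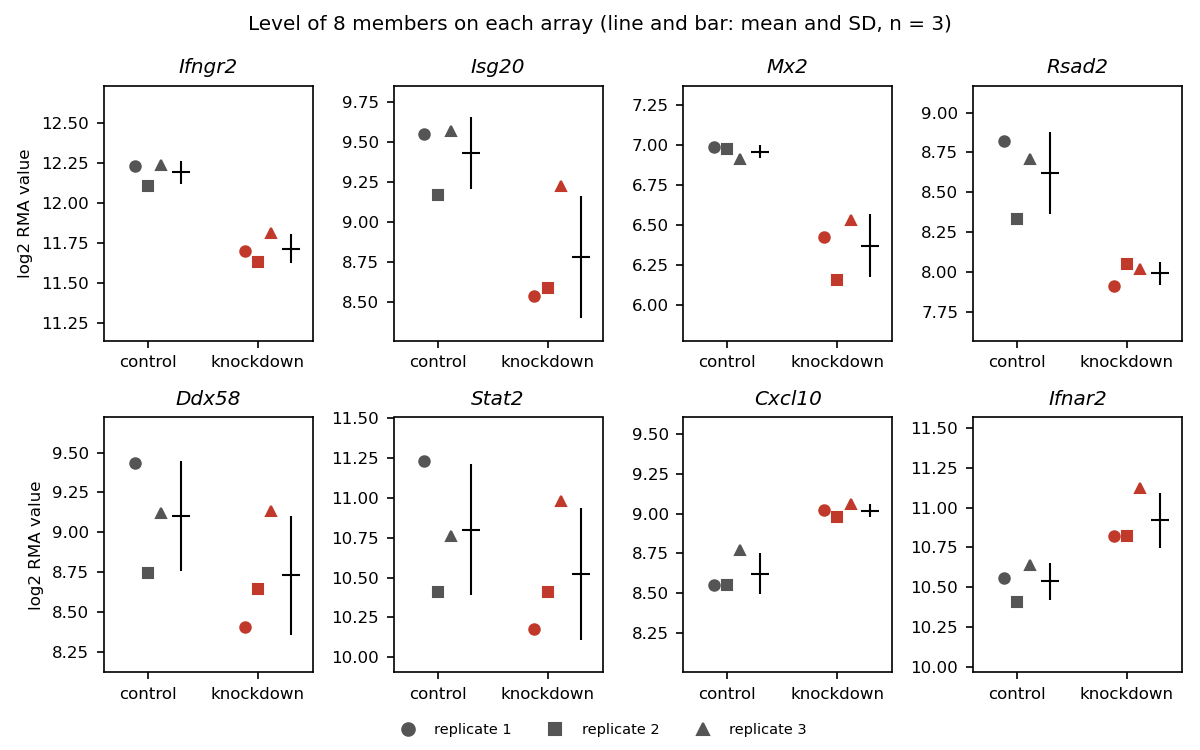
Log2 RMA value on each of the 6 arrays (points, y axis) with the mean and SD of each group (n = 3) for 8 members, control beside knockdown. The groups are apart for *Ifngr2*, *Mx2*, *Rsad2*, *Cxcl10* and *Ifnar2*, whereas they overlap for *Isg20*, *Ddx58* and *Stat2*, in which knockdown array 3 is the highest knockdown array and control array 2 the lowest control.

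The Ifit genes encode proteins that bind foreign RNA and restrain its translation. The 3 measured members lie in 1 cluster on chromosome 19 and differed by 0.30 (*Ifit2*, adjusted p = 0.126), 0.00 (*Ifit3*, not in the test) and -0.38 (*Ifit1*, adjusted p = 0.177). *Ifit1* read 7.37, 7.93 and 7.76 in control and 7.33, 7.61 and 6.98 in knockdown, with overlap. *Ifit2* read 6.60, 6.53 and 6.57 in control and 6.76, 6.85 and 7.01 in knockdown, all above control. The promoter stretches printed for *Ifit1* and *Ifit3* each hold a pair of ISRE matches, and neither gene was called.

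The oligoadenylate synthetases make the messenger that activates RNase L. *Oas1a* read above control on all knockdown arrays with a difference of 0.16 outside the test, *Oas2* differed by 0.04 (adjusted p = 0.881) and *Oas3* by 0.10. The synthetase-like genes *Oasl1* and *Oasl2*, which are adjacent on chromosome 5, both had all knockdown arrays below control. *Oasl2* read 8.72, 8.14 and 8.58 in control and 7.92, 8.09 and 8.14 in knockdown, a difference of -0.43 (SE 0.15, adjusted p = 0.0898). The highest knockdown value lay just under the lowest control value. *Oasl1* differed by -0.23 (SE 0.12, adjusted p = 0.237).

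Among the other effectors, *Ifi35*, an interferon-induced leucine zipper protein, differed by -0.25 (adjusted p = 0.212) and *Bst2*, which encodes the virion-retaining protein tetherin, by -0.09 outside the test. In both genes all knockdown arrays lay below control. *Cmpk2*, a mitochondrial nucleotide kinase gene next to *Rsad2* with 0 protein-coding genes between them, differed by only -0.06, in contrast to the value of -0.63 of its neighbour. The difference between these neighbours was not tested. *Gbp3*, a guanylate-binding GTPase, differed by 0.07 (adjusted p = 0.745). *Adar*, which encodes an enzyme that edits adenosine in double-stranded RNA and so hides it from the sensors, read 9.61, 9.70 and 9.80 in control and 9.83, 9.67 and 9.59 in knockdown. The groups covered about the same range, with a difference of -0.01 (SE 0.12, adjusted p = 0.973).

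Induced signalling genes centred on 0, with a median difference of 0.01. All knockdown arrays lay above control in 2 of 8 members and below in 0, beside 12.8% and 10.8% of all named genes. *Cxcl10*, a chemokine that attracts T cells and is a usual readout of interferon signalling, read 8.55, 8.55 and 8.77 in control and 9.02, 8.98 and 9.06 in knockdown. All knockdown arrays lay above control. The difference of 0.40 was just outside the threshold (SE 0.12, adjusted p = 0.0551), and without the filter on variance it passed, with an adjusted p of 0.0478. When each array was left out in turn, *Cxcl10* was not called in any of the 6 refits. Its difference is positive and that of *Rsad2* negative, both promoter stretches hold an ISRE match, and the difference between these genes was not tested. *Socs1*, an inhibitor of JAK kinases that limits interferon signalling, read 8.48, 8.18 and 8.33 in control and 8.50, 8.56 and 8.61 in knockdown. The groups were apart by a narrow margin, and the difference was 0.23 (adjusted p = 0.244).

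*Socs3*, a related inhibitor, differed by 0.08 (adjusted p = 0.698) and *Usp18*, which removes ISG15 from proteins and dampens the type I receptor, by 0.03 (adjusted p = 0.899). *Trim25*, the ubiquitin ligase that acts on RIG-I, read 9.66, 9.72 and 9.85 in control and 9.74, 9.69 and 9.79 in knockdown. All its knockdown arrays lay within the control range, with a difference of -0.00. *Parp14*, *Dtx3l* and *Parp9* are adjacent on chromosome 16 and encode ADP-ribosyl transferases and a partner ubiquitin ligase. They differed by -0.22 (adjusted p = 0.270), -0.02 (adjusted p = 0.941) and -0.03, the last outside the test.

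Antigen processing genes had a median difference of -0.20, and 3 of the 5 had all knockdown arrays below control, beside 10.8% of all named genes. Only 2 of them, *Tap1* and *Tap2*, were in the test, and neither was called. *Tap2*, a subunit of the transporter that carries peptides to MHC class I, read 10.00, 9.98 and 9.81 in control and 9.61, 9.62 and 9.64 in knockdown. The knockdown arrays were tight and all below control, with a difference of -0.31 (SE 0.12, adjusted p = 0.118). *Tap1*, the other subunit, differed by -0.24 (adjusted p = 0.211), also with groups apart. *B2m*, the light chain of MHC class I, read 13.33, 13.20 and 13.17 in control and 12.87, 13.10 and 13.14 in knockdown. These groups did not overlap by a narrow margin, with a difference of -0.20 outside the test. The immunoproteasome subunits *Psmb8* and *Psmb9*, whose genes alternate with *Tap1* and *Tap2* on chromosome 17, differed by 0.00 and 0.10. Within this run of 4 adjacent genes the transporter subunits read lower on all knockdown arrays and the proteasome subunits did not.

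Individual arrays weighed on these values. Relative to the control mean, the 50 members averaged 0.05, -0.09 and 0.04 on control arrays 1 to 3 and -0.16, -0.12 and -0.04 on knockdown arrays 1 to 3. The mean of control array 2 therefore lay below that of knockdown array 3. Over all named genes the knockdown arrays averaged 0.01, 0.01 and 0.00. Control array 2 was the lowest control in 31 of the 50 members (62.0%), against 43.3% of all named genes, and knockdown array 3 the highest knockdown array in 32 (64.0%), against 34.5%. Antiviral effectors averaged -0.21, -0.18 and -0.15 on the knockdown arrays and -0.09 on control array 2, so that for this role all knockdown arrays lay below all controls. The same held for antigen processing genes, at -0.20, -0.12 and -0.07 on the knockdown arrays and -0.03 on control array 3, the lowest control. The part of single arrays in these values was not tested.

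**Figure D3:**
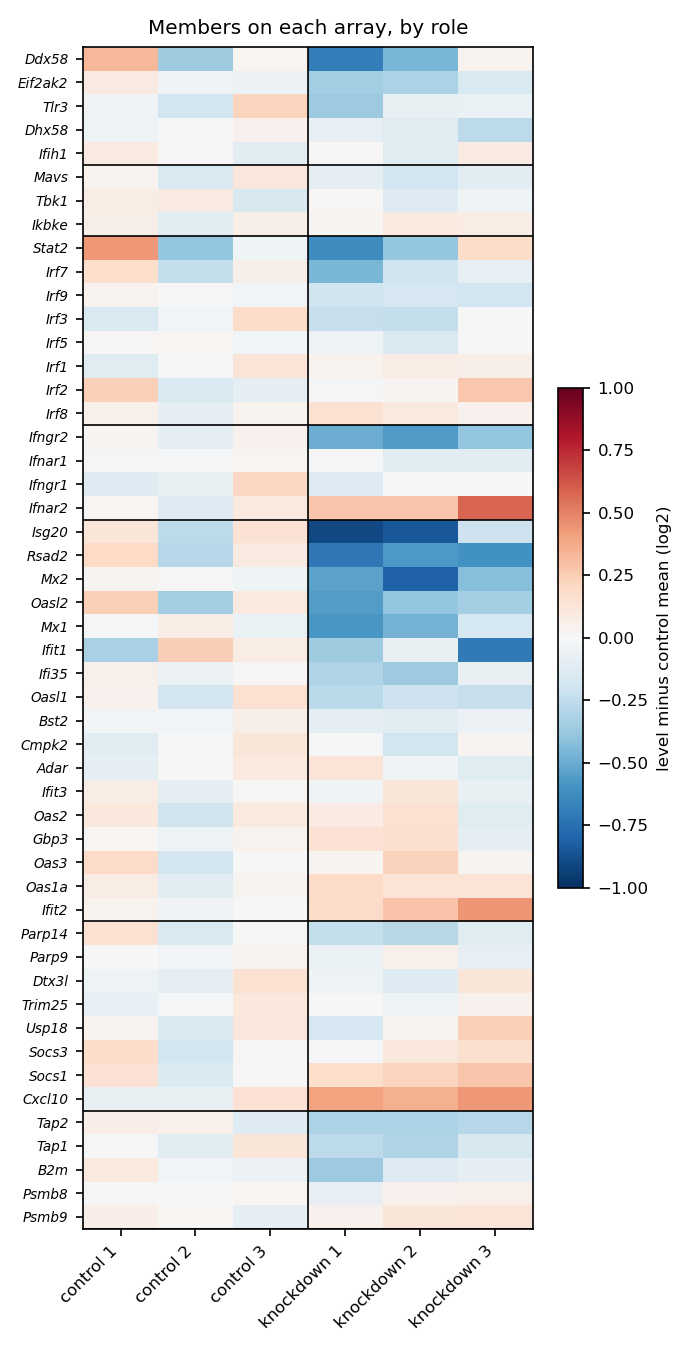
Log2 RMA value minus the gene's control mean for each of the 50 measured members (rows, by role) on each array (columns, 3 control and 3 knockdown). Knockdown arrays 1 and 2 averaged -0.16 and -0.12 over the members, and knockdown array 3 -0.04.

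With 3 arrays a group the calls were sensitive to single arrays. The difference of *Ifngr2* stayed between -0.53 and -0.44 when each array was left out in turn, that of *Mx2* between -0.67 and -0.48, that of *Rsad2* between -0.77 and -0.53 and that of *Isg20* between -0.87 and -0.53. All 4 were thus negative in each of the 6 refits. The calls were lost without control array 1, control array 3 or knockdown array 2, and without knockdown array 1 only *Mx2* was called. In these refits between 1.12% and 2.43% of all tested genes were called. Without control array 2 and without knockdown array 3, 5 members were called in each case, beside 7.88% and 12.4% of all tested genes. With all clusters, named or not, in the fit no member was called lower, and 0 of all clusters tested were called. Weights for array quality gave 17 lower members, with 55.8% of all tested genes called in either direction.

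**Figure D4:**
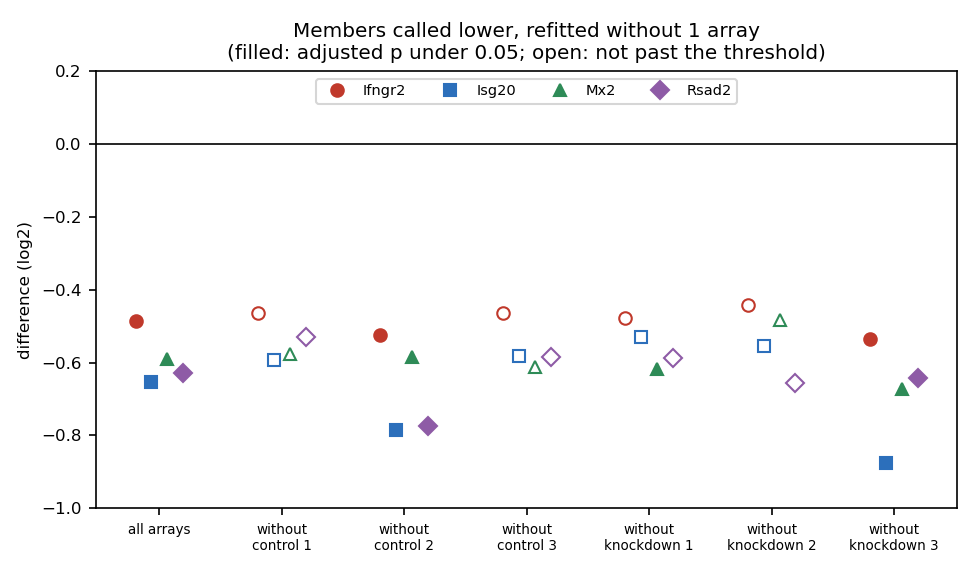
Difference of log2 RMA values, knockdown minus control, of the 4 called members with all 6 arrays and after each array was left out (x axis), filled where the adjusted p was under 0.05. Differences remained between -0.87 and -0.44, and all 4 calls were kept without control array 2 and without knockdown array 3.

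The ISRE letters were searched in promoter windows of 250 bases before and 50 bases after each start, on both strands. Of the 50 members 42 matched a RefSeq window, and 15 of these (5 sensor-to-receptor and 10 induced genes) held GAAANNGAAA, against 3.99% of all genes in the table. The gamma-activated sequence TTCNNNGAA was held by 14 members and by 9.55% of all genes. Among the 15 members with an ISRE match 8 had a mean below control, with a median difference of -0.01 and 1 call, *Rsad2*. Among the 27 without a match 19 were below control, with a median difference of -0.06 and 2 calls, *Ifngr2* and *Isg20*. *Mx2*, the other called member, is among the 8 members without a window and enters neither count. A match is a description of letters, and a gene may have elements outside the window.

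Further genes of the pathway were taken from a list of 72, of which 58 were measured and 34 tested. *Tarbp2* was the only call. It encodes the partner of Dicer that binds double-stranded RNA and restrains PKR, and it was 0.51 higher (SE 0.13, adjusted p = 0.0285, 1.42-fold). This call was lost without control array 1 or 3, without knockdown array 1 or 2 and with all clusters in the fit (adjusted p from 0.0773 to 0.186). Of the 58 genes 31 had a mean below control (53.4%, beside 41.6% of all named genes), with a median difference of -0.03. All knockdown arrays lay below control in 8 and above in 8, beside 10.8% and 12.8% of all named genes. The 1 call among 34 tested genes stands beside 7.54% of all tested genes. The widest differences among those not called were -0.51 for *Lgals3bp*, a secreted glycoprotein gene (adjusted p = 0.0637), -0.46 for *Tapbp*, which encodes the peptide-loading factor tapasin (adjusted p = 0.102), -0.43 for *Tyk2*, a receptor-associated kinase (adjusted p = 0.0915), and -0.39 for *Parp12* (adjusted p = 0.0726).

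The interferon genes themselves gave small differences. *Ifnb1*, the first type I interferon made in most cells, differed by 0.01 at a mean level of 5.57, below the rough floor of 6.73. *Ifna4* differed by -0.10 at a mean level of 6.16, also below that floor, and *Ifna2* by -0.03 at 7.32. *Ifng*, made by lymphocytes, differed by 0.25 at 6.80. *Ifna4* was not in the test, and none of the others was called. Of the members 43 had a mean level above the floor, and the 7 below it were *Mx1*, *Mx2*, *Ifih1*, *Tlr3*, *Ifit2*, *Ifit3* and *Gbp3*. Levels of different clusters rest on different probes, so their order is no finding. It was used to choose which cluster to keep and which members to give array by array. The rough floor and the alternative filter on low level also rest on it.

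The arrays carried the markers of the labelled line. All 13 measured neuroblastoma markers, among them *Phox2a*, *Hand2* and *Mycn*, lay above the floor, between 9.03 and 13.14. Their mean was 11.37 to 11.43 on the control arrays and 11.07 to 11.22 on the knockdown arrays. All but *Hand2*, *Tubb3* and *Mycn* were tested. The 3 called markers were all lower, beside 5.16% of all tested genes called lower. *Dbh* and *Th*, enzymes of catecholamine synthesis, fell by 1.09 (adjusted p = 0.000687) and 0.68 (adjusted p = 0.0105), further than any member, and the secretory granule gene *Chgb* fell by 0.45 (adjusted p = 0.0351). The part of this shift in the members' values was not tested. Of 9 macrophage and blood markers, cells that respond strongly to interferon, 2 lay above the floor. The mean of the 9 was 6.17 to 6.24 in control and 6.24 to 6.39 in knockdown. Only *Ptprc* and *Cd3e* of these were in the test, and neither was called. *Ptprc* and *Adgre1*, the defining markers of leukocytes and macrophages, were below the floor. The 2 markers above it were *Cd68*, at 7.48, and *Cd3e*, at 7.20. Of 9 fibroblast and endothelial markers 7 lay above the floor, at most at 8.14. All but *Dcn* and *Cdh5* were tested, and 0 were called. Of 4 glial markers 3 lay above the floor, and none of the 4 was in the test.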

How the data were processed

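The deposited table holds log2 values that the authors made by RMA (background correction, quantile normalisation, probe summary). Versions and a genome build were not given in the sources. Of 35556 transcript clusters 21789 carried 1 gene symbol in the platform annotation, 1621 several and 12146 none. Those with 1 symbol were kept, and the brightest for each of 999 genes with several clusters, leaving 19938 genes. Following the study's methods, genes of low variance were removed, taken here as the lower 50% by interquartile range over the 6 arrays. The 9969 genes left were fitted with limma 3.58.1 under R 4.3.3 (lmFit, eBayes), and p-values were adjusted by Benjamini-Hochberg at 0.05. Printed SE and adjusted p are from this fit unless said otherwise. A cluster sums up all probes of a gene, so isoforms are not resolved, and 3 arrays a group limit the precision. Pairing was judged by each array's deviations from its group mean, correlated over all named genes. Between control and knockdown arrays of the same number these deviations correlated at -0.29, 0.06 and 0.08, and the arrays were not treated as pairs. Members and lists were chosen with earlier results of these data known. Array values are given for called members and, in each role, for those with the widest difference and the highest level. The array values of *Irf9*, *Eif2ak2*, *Ifnar1*, *Ifnar2*, *Mx1*, *Oasl2*, *Ifit1*, *Ifit2* and *Socs1* and the neighbouring genes were chosen after their values were seen. The fit was checked on simulated data with independent noise in each gene and arrays of equal quality. That check cannot speak to effects of single arrays that many genes share. Alternatives were other filters, clusters, centring, quantile normalisation, array weights, moderation, a replicate block and leaving out each array.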

Additional observations from a re-analysis of the deposited data

How the results depend on the processing

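Medians kept their direction in all alternatives for the sensor-to-receptor genes, from -0.16 to -0.07. For the induced genes the median was -0.13 with array weights and ranged from -0.0798 to 0.00654 when 1 array was left out, turning sign without control array 3. Genes called went from 752 to 5561 with array weights and to 0 with all 17778 clusters that passed the filter (3015 had an unadjusted p under 0.05), and ranged from 112 to 1239 with 1 array left out. Members called lower were 17 with array weights, 0 with all clusters and 0 to 5 with 1 array left out. Array weights lay between 0.289 (control array 1) and 4.44 (control array 3), and the cause of these shifts was not tested. *Cxcl10* made 1 member higher without the filter, with a filter on low level, after median centring, after repeated quantile normalisation and with a trended robust fit, and 4 members were higher with array weights. Further pathway genes called were 4 with the sample variance filter, 2 with the low-level filter, the trended robust fit and the replicate block, 19 with array weights, 0 with all clusters and 0 to 5 with 1 array left out. The replicate block gave 680 genes, 4 members lower and 0 higher. By deviations from the group mean, not every array correlated best with the array of its own number. *Isg20* had an adjusted p of 0.0911 without the filter and 0.0671 with the low-level filter, which removed *Mx2*. Signal near the floor limits *Mx1*, *Mx2* and *Ifit2*.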
